A study of Mus musculus with 4 samples.

Results

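The genes of glucose uptake, glycolysis, lactate exchange and pyruvate entry into mitochondria were followed across 6 classes of retinal cell. The set holds 33 genes, chosen by symbol from a fixed list, of 27999 genes in the deposited table, and all 33 were found there. The cells came from 4 retinas of C57BL/6 mice aged 3 months, dissociated and sorted by flow cytometry for green fluorescent protein driven by a Brn3b reporter. Brn3b, the protein of the gene Pou4f2, is a transcription factor of retinal ganglion cells (RGCs). All 4 retinas form 1 group with the same strain, age, reporter and sort, no treated or unsorted group was analysed here, and the barcodes of the table name no retina. The data are therefore 1 pooled sample without replicates: no test was made, and every interval below is an exact 95% interval that covers counting error only. Each barcode is 1 droplet of the 10x Chromium 3′ V2 kit, and a value is a number of unique molecular identifiers (UMIs), each standing for 1 captured RNA molecule.

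Glycolysis turns glucose into pyruvate in the cytosol. Pyruvate is then either reduced to lactate by lactate dehydrogenase and exported by monocarboxylate transporters, or carried into mitochondria and oxidised by the pyruvate dehydrogenase complex. Several steps are encoded by more than 1 gene, and the isoenzymes differ in affinity and regulation. The retina is known for producing lactate in the presence of oxygen, mainly in photoreceptors, and Müller glia, which span the tissue, are known to take up glucose and pass on fuel to neurons.

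Many of these genes are known targets of hypoxia-inducible factors, whose binding sites hold the core ACGTG or GCGTG. The 250 bases before the transcription start were taken from RefSeq (GRCm38.p6) and searched for ACGTG and GCGTG on both strands, where the reverse complements read CACGT and CACGC and may overlap. A promoter entry was matched for 31 of the 33 genes, the others being Slc2a3 and Slc16a7. At 1 start or more, 27 of these 31 genes (87.1%) held a match, against 41.5% of all 27025 genes with an entry and 62.25% of the 9688 with an entry that had 20 or more UMIs over RGC and horizontal barcodes. ACGTG, counted by itself, was found in 15 members (48.4%), against 18.5% of all and 25.35% of measured genes. A gene with more starts has more windows to match, and the 31 members had 48 starts, against 32851 for the 27025 genes. Counted per start, 37 of the 48 held a match, against 38.6% of all starts, and 19 held ACGTG, against 16.57%. A match describes letters in a window and does not show binding. The windows of 4 genes on which the class comparisons turn are shown, read 5′ to 3′ on the strand of the gene, with the matches in capitals.
Ldha (lactate dehydrogenase A), chr7:46845554-46845803, plus strand, 1 of its annotated starts: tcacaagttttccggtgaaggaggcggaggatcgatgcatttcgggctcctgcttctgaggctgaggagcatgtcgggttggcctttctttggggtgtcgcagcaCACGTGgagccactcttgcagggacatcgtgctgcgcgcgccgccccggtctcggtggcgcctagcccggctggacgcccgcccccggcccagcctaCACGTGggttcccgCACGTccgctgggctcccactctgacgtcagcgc
Ldhb (lactate dehydrogenase B), chr6:142507958-142508207, minus strand: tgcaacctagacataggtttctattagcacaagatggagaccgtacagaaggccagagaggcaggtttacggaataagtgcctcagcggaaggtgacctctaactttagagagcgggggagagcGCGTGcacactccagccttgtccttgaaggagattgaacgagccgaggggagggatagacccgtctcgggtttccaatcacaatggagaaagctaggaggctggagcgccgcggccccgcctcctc
Hk2 (hexokinase 2), chr6:82774455-82774704, minus strand: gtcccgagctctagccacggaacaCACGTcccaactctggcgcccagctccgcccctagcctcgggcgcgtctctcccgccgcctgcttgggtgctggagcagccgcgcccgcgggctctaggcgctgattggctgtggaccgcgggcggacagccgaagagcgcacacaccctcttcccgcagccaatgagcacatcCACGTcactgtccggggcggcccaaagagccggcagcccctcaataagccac
Pfkfb3 (a kinase that makes the activator of phosphofructokinase), chr2:11502091-11502340, minus strand, 1 of its annotated starts: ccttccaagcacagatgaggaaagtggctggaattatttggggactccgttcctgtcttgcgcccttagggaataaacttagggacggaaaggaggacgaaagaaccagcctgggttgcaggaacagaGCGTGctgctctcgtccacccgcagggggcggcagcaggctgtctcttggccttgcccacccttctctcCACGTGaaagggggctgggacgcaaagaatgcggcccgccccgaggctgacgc
The Ldha window held 5 matches and that of Ldhb 1, so the windows shown for these 2 genes differed in these letters. Each CACGTG, as in the Ldha and Pfkfb3 windows, counts as 2 overlapping matches, so matches outnumber separate sites there. The Hk2 window held 2 matches and the Pfkfb3 window 3.

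Of 3237 barcodes, 2636 were kept after filters on genes, mitochondrial UMIs and doublets, and 2088 of these met exactly 1 class rule. RGC barcodes (912) had Slc17a6, at least 3 UMIs of Slc17a6 and Rbpms together, and at most 1 of Lhx1, horizontal cell barcodes (404) had Lhx1 and no Slc17a6, and bipolar cell barcodes (325) had Trpm1 and Pcp2. Cone barcodes (96) had Arr3 and Gnat2, Müller glia barcodes (206) had Rlbp1 and Slc1a3, and microglia barcodes (145) had C1qa, C1qb and C1qc. No member of the gene set entered a rule. Each class held by far the highest summed level of its own marker list: 11559 CPM (UMIs of a gene per 1000000 UMIs of the class) of the RGC list in RGC barcodes, against 366 to 1607 CPM elsewhere. The marker lists include the genes of the class rules, so these sums were in part fixed by the selection and are no independent check of the classes. The Müller list of 8 genes summed to 40087 CPM in Müller and 303 to 657 CPM in the neuronal classes, but to 6549 CPM in microglia barcodes, of which Apoe, a gene that microglia are also known to express, made 5472 CPM and Glul 934 CPM, while Aqp4 was at 0 and Rlbp1 at 20.2 CPM. Bipolar barcodes lost many to the filters, with 325 kept of 662 and a median mitochondrial share of 10.1% before them. Depth differed, with a median of 15825.5 UMIs in RGC, 11168.5 in horizontal and 3740 to 4657 in the other 4 classes, and the median mitochondrial share ran from 2.23% in microglia to 8.53% in bipolar barcodes. RNA of rods was present throughout: Gnat1, the rod transducin, had 1350 CPM in cone and 64.1 to 355 CPM in the other classes, and a list of 9 rod genes, some of which cones also express, summed to 20920 CPM in cone and 436 to 2184 CPM in the other barcodes. Immediate-early genes, which respond to stress and to dissociation, summed to 11952 CPM in Müller and 16237 CPM in microglia barcodes, against 239 to 984 CPM elsewhere, and their part in the values of those 2 classes was not tested. The green fluorescent protein is listed as a gene but had 0 UMIs, so the sort could not be checked on it.

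The members together took a similar share of UMIs in the neurons and a smaller one in glia and microglia. They made 2.08% of UMIs in RGC, 2.01% in horizontal, 1.93% in bipolar and 1.95% in cone barcodes, but 1.25% in Müller and 0.5625% in microglia barcodes. The highest level of each gene was spread over all 6 classes. Horizontal barcodes held the highest level of 8 members, cone of 7, RGC of 6, Müller of 6, bipolar of 4 and microglia of 2. The interval of the ratio to the next class left 1 for 7 of those 8 in horizontal, 4 of 7 in cone, 5 of 6 in RGC, 5 of 6 in Müller, 3 of 4 in bipolar and neither in microglia. The 5 in Müller include Pdk4, which had 2 UMIs there and 0 in the other 5 classes. It was set against RGC barcodes although those 5 classes tie, so it has no true next class and its count is not read as a lead.

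**Figure D1:**
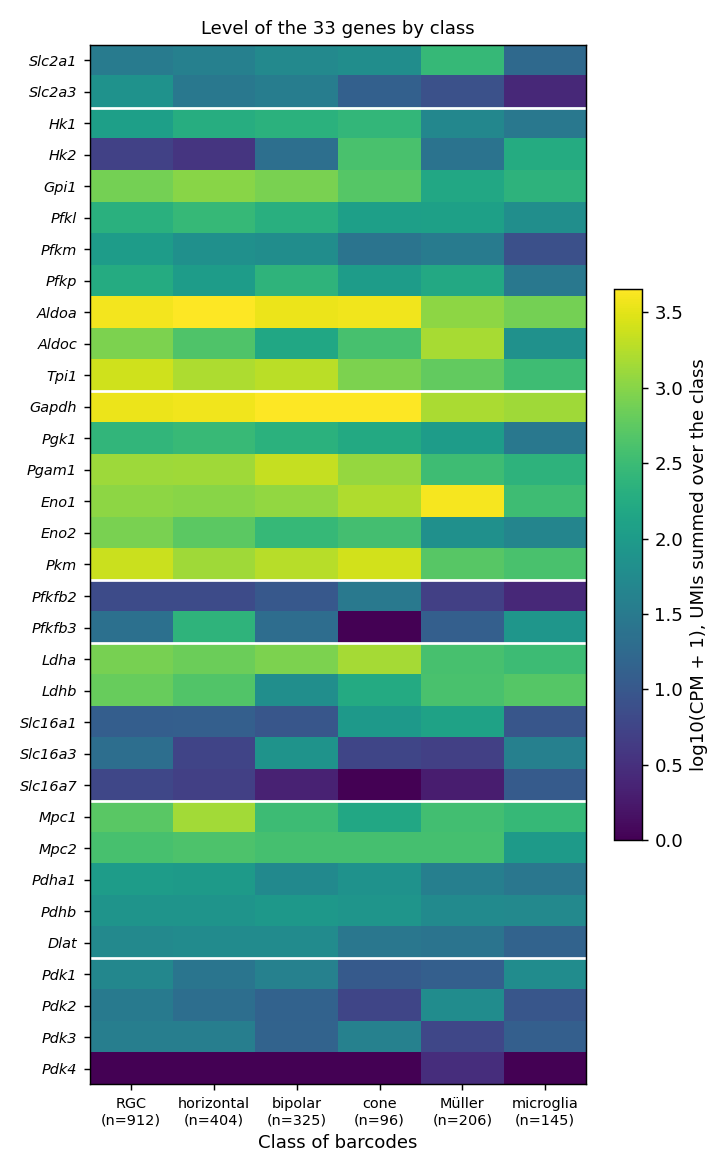
Level of each of the 33 genes (vertical axis, ordered by step from glucose uptake at the top to the pyruvate dehydrogenase kinases, white lines between steps) in the 6 classes of barcodes (horizontal axis, n = cells), as log10 of CPM + 1 of UMIs summed over the class. Hk2 is high in cone and microglia, Pfkfb3 and Mpc1 in horizontal, and Slc2a1 and Eno1 in Müller barcodes.

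Glucose enters through Slc2a1, a transporter also known as GLUT1 and found in glia and vessels among other cells, and Slc2a3, the high-affinity neuronal transporter GLUT3. Slc2a1 (chromosome 4, 119108711 to 119137983) had 280 CPM in Müller, 60.9 in cone, 51.2 in bipolar, 37.9 in horizontal, 32.1 in RGC and 16.8 in microglia barcodes. The Müller level was 4.59-fold (3.05 to 7.22) that in cone barcodes, the next in order, while cone and bipolar, and horizontal and RGC, did not differ beyond counting error. Slc2a3 was instead highest in RGC barcodes and low in Müller barcodes. It had 72.5 CPM in RGC, 34.5 in bipolar, 28.4 in horizontal, 12.2 in cone, 6.95 in Müller and 1.68 in microglia barcodes, where it rested on 1 UMI. UMIs were counted at the 3′ end and not per length, so a share within a family is read between classes. The 2 transporters divided as 69.3% Slc2a3 (67.0% to 71.6%) in RGC, 42.9% in horizontal, 40.3% in bipolar and 16.7% in cone barcodes, and 2.42% (0.979% to 4.93%) in Müller barcodes. Microglia had 11 UMIs of both, under the minimum of 30 set for a share. The 3 endothelial markers, of a cell type known for Slc2a1, summed to 420 CPM in Müller barcodes and 1.98 to 10.1 CPM elsewhere. Of this sum Flt1 made 415 CPM in 78.6% of Müller barcodes, while Cldn5 and Pecam1 each had a UMI in 0.971% of them. Slc2a1 was at 260 CPM without the 10 Müller barcodes holding a UMI of Cldn5, Pecam1 or the astrocyte gene Gfap.

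Hexokinase, the first enzyme of the pathway, differed widely between classes in isoform use. Hk1 is the common neuronal form and Hk2 the form known from photoreceptors, muscle and tumours. Hk2 (chromosome 6, 82725025 to 82774454) had 397 CPM in cone, 176 in microglia, 23.8 in Müller, 20.4 in bipolar, 4.015 in RGC and 2.645 in horizontal barcodes. The cone level was 98.9-fold (73.4 to 135) and the microglial level 43.9-fold (31.8 to 61.15) that in RGC barcodes. Among hexokinase UMIs, Hk2 made 86.1% (78.6% to 91.7%) in microglia and 59.9% (53.8% to 65.8%) in cone barcodes. It made 33.3% (22.7% to 45.4%) in Müller, 8.73% in bipolar, 3.39% in RGC and 1.36% in horizontal barcodes. Hk1 was highest in cone (266 CPM, 218 to 320.3), bipolar (213) and horizontal barcodes (192, 179.2 to 204.9). Neighbours in this order did not differ beyond counting error, but the cone and horizontal intervals did not overlap. They did overlap without barcodes holding a Gnat1 UMI, with Hk1 at 231.4 CPM (172.8 to 303.5) in 58 cone and 190.4 CPM (173.7 to 208.3) in 229 horizontal barcodes. Over all barcodes of a class, Hk1 had 114 CPM in RGC, 47.6 in Müller and 28.6 in microglia barcodes. Cone barcodes therefore held both hexokinases, and 37.5% of them had a UMI of each at a depth of 3000 UMIs. Beside the high rod RNA of the cone class, Hk2 was at 374 CPM in the 58 cone barcodes that remained when barcodes with a Gnat1 UMI were left out, and at 186 CPM in the 101 microglia barcodes. In bipolar barcodes the same step took Hk2 from 20.4 to 10.4 CPM (4.97 to 19.04) over 206 cells.

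Gpi1, the isomerase after hexokinase, was higher in the 3 classes of horizontal (1024 CPM), bipolar (842) and RGC barcodes (779) than in cone (490), microglia (227) and Müller barcodes (153). Phosphofructokinase, the main regulated step, has a liver (Pfkl), a muscle (Pfkm) and a platelet form (Pfkp). Pfkl made 62.3% of its UMIs in horizontal and 63.8% in microglia barcodes, against 38.0% to 47.0% in the other 4 classes. Pfkp made 51.8% in Müller and 47.5% in bipolar barcodes but 22.6% in horizontal barcodes. Pfkm was the smallest part in every class and was highest in RGC barcodes, with 104 CPM against 6.72 to 68.5 elsewhere and 21.4% (20.5% to 22.4%) of the family.

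Aldolase splits the sugar into its 3-carbon parts, with Aldoa as the general and Aldoc as the brain form, a marker of astrocytes and Müller glia. Aldoc (chromosome 11, 78322968 to 78327781) had 1511 CPM in Müller, 855 in RGC, 439 in horizontal, 385 in cone, 150.5 in bipolar and 68.9 in microglia barcodes. It made 58.6% (56.7% to 60.5%) of aldolase UMIs in Müller barcodes and 17.9% (17.6% to 18.1%) in RGC barcodes, against 4.12% to 9.11% in the other 4. A single Müller barcode held 20.6% of the Müller Aldoc UMIs. Without that barcode the share was 53.6%, and without the 10 Müller barcodes with a Cldn5, Pecam1 or Gfap UMI the level was 1101 CPM and the share 51.7%, still the highest of the 6 classes. With a mitochondrial limit of 5%, which left 31 Müller barcodes, the share was 49.9%, and Aldoc was no longer the larger part. Aldoa was between 3507 and 4451 CPM in the 4 neuronal classes and at 1068 CPM in Müller and 768 CPM in microglia barcodes. Tpi1, which interconverts the 3-carbon sugars, was highest in RGC barcodes at 2434 CPM, 1.28-fold (1.23 to 1.33) the bipolar level of 1905 CPM and 2.83-fold (2.55 to 3.15) the cone level of 860 CPM.

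In the lower, energy-yielding steps, the level of Eno2 was higher in every neuronal class than in Müller and microglia barcodes, while that of Eno1 was not. Eno1 is the general enolase and Eno2 the neuron-specific enolase used as a clinical marker of neurons. Eno1 (chromosome 4, 150236721 to 150248879) had 4054 CPM in Müller, 1639 in cone, 1164 in bipolar, 1081 in RGC, 1006 in horizontal and 329 in microglia barcodes. Eno2 (chromosome 6, 124760053 to 124769673) ran from 842 CPM in RGC through 544 in horizontal, 365 in cone and 278 in bipolar to 67.5 in Müller and 45.4 in microglia barcodes. Müller barcodes were thus the highest of the 6 for Eno1 and among the 2 lowest for Eno2. Eno2 made 43.8% (43.2% to 44.4%) of enolase UMIs in RGC, 35.1% in horizontal, 19.3% in bipolar, 18.2% in cone, 12.1% in microglia and 1.64% (1.27% to 2.07%) in Müller barcodes. Eno1 was also 1 of only 4 members called higher in Müller than in RGC barcodes.

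Gapdh, which makes the first reduced cofactor of the pathway, was at 4533 CPM in cone and 4512 in bipolar barcodes, which did not differ beyond counting error, against 3726 in horizontal and 3568 in RGC barcodes. It was at 1558 CPM in Müller and 1386 CPM in microglia barcodes. Pgk1, which makes the first ATP, and Pgam1, the mutase after it, kept the same division: Pgk1 had 163 to 293 CPM in the 4 neuronal classes against 104 in Müller and 28.6 in microglia, and Pgam1 1208 to 2144 CPM against 333 and 232. Pgam1 stood out in bipolar barcodes, 1.57-fold (1.502 to 1.63) above the next class, horizontal. Pkm, the pyruvate kinase gene, was at 2528 CPM in cone, 2299 in RGC, 1821 in bipolar, 1357 in horizontal, 506 in Müller and 398 in microglia barcodes. Its M1 and M2 splice forms are not separated by counts per gene. Gapdh, Aldoa, Pgk1, Pgam1 and Ldha each have 2 pseudogenes named after them in the annotation and Mpc1 has 1, so UMIs of these 6 genes are uncertain where a copy takes or gives reads. The same holds where another gene overlaps on the same strand, as for Slc2a1, Slc2a3, Pfkm, Pkm, Pfkfb2, Pfkfb3, Slc16a1 and Mpc2. Copies under other names were not looked for, so further members may be affected. Gene coordinates here are those of GENCODE M21 on GRCm38 (mm10).

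Pfkfb2 and Pfkfb3 make the sugar phosphate that activates phosphofructokinase, and Pfkfb3 is the form known for pushing glycolysis in microglia, vessels and glia. Pfkfb3 (chromosome 2, 11471433 to 11554077) had 240 CPM in horizontal, 82.3 in microglia, 21.6 in RGC, 19.1 in bipolar and 11.9 in Müller barcodes. It had 0 UMIs in the 96 cone barcodes, which allows up to 7.31 CPM (3 counts over the class). Horizontal barcodes were 11.1-fold (9.85 to 12.6) above RGC barcodes, the largest lead of horizontal over RGC barcodes among the 33 genes, and the level was 242 CPM in the 229 horizontal barcodes without a Gnat1 UMI. Cone barcodes had Pfkfb2 instead, at 29.2 CPM (15.1 to 51.1) from 12 UMIs, 3.16-fold (1.35 to 7.23) the bipolar level. Horizontal and microglia barcodes were at 97.6% and 98.0% Pfkfb3 within the pair, RGC barcodes at 78.4% (74.1% to 82.2%) and bipolar barcodes at 67.4% (52.0% to 80.5%).

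Lactate dehydrogenase has an A subunit (Ldha), known for making lactate from pyruvate, and a B subunit (Ldhb), known for the reverse reaction in oxidative cells. Ldha (chromosome 7, 46841475 to 46855627) had 1457 CPM in cone, 858 in bipolar, 794 in RGC, 674 in horizontal, 389 in Müller and 318 in microglia barcodes. Ldhb (chromosome 6, 142490249 to 142507957) had 637 CPM in RGC, 487 in microglia, 457 in horizontal, 400 in Müller, 170.5 in cone and 62.3 in bipolar barcodes. The B share therefore split the neuronal classes compared here into 2 kinds, where bipolar barcodes are only those with Trpm1 and Pcp2. Ldhb made 44.5% (43.9% to 45.2%) of the UMIs in RGC and 40.4% (39.1% to 41.8%) in horizontal barcodes, but 10.5% (8.26% to 13.1%) in cone and 6.77% (5.55% to 8.17%) in bipolar barcodes. It made 50.7% (47.2% to 54.2%) in Müller and 60.5% (56.0% to 65.0%) in microglia barcodes. RGC barcodes were 10.2-fold (8.41 to 12.6) above bipolar barcodes for Ldhb and 0.926-fold (0.876 to 0.979) for Ldha. At a depth of 3000 UMIs both subunits were seen in 59.2% of RGC, 40.6% of cone and 9.23% of bipolar barcodes, and no cone barcode had Ldhb alone.

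Lactate crosses membranes through Slc16a1 (MCT1), Slc16a3 (MCT4, the exporter of glycolytic cells) and Slc16a7 (MCT2, a high-affinity neuronal form). Slc16a1 had 127 CPM in Müller and 95 in cone barcodes, which did not differ beyond counting error, and 8.40 to 11.9 CPM in the other 4 classes. Without barcodes holding a Gnat1 UMI, Slc16a1 was at 66.75 CPM (37.36 to 110.1) in cone and 134.3 CPM (108.3 to 164.7) in Müller barcodes. Slc16a3 had 74.0 CPM in bipolar, 38.6 in microglia, 19.9 in RGC, 4.87 in cone, 4.63 in horizontal and 3.97 in Müller barcodes. Slc16a7 was sparse everywhere, with 76 UMIs (4.92 CPM) in RGC, 18 in horizontal, 6 in microglia, 2 in bipolar, 1 in Müller and 0 in cone barcodes. In 3 classes nearly all transporter UMIs came from 1 gene, with 96.2% Slc16a1 (91.4% to 98.8%) in Müller, 95.1% Slc16a1 (83.5% to 99.4%) in cone and 88.2% Slc16a3 (81.6% to 93.1%) in bipolar barcodes. RGC barcodes held 54.8% Slc16a3, 31.6% Slc16a1 and 13.6% Slc16a7.

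**Figure D2:**
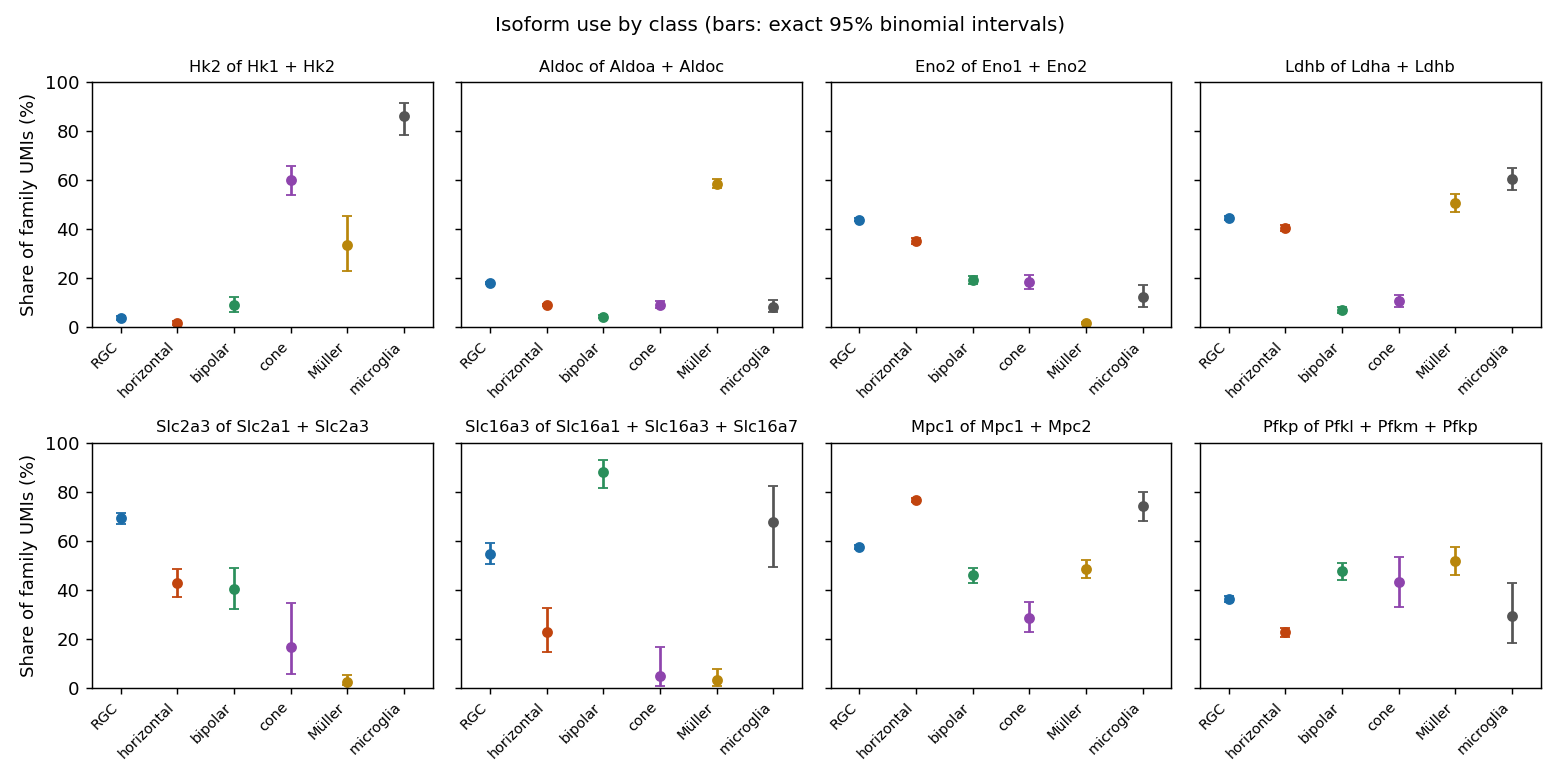
Share of 1 gene among the UMIs of its family (vertical axis, percent) in 8 families across the 6 classes of barcodes (horizontal axis), with points for the pooled share and bars for exact 95% binomial intervals. Hk2 is the larger part in cone and microglia barcodes, Aldoc is at 58.6% in Müller barcodes (49.9% with a mitochondrial limit of 5%), Ldhb is at 6.77% in bipolar and 10.5% in cone barcodes, and no share is drawn where a family had fewer than 30 UMIs.

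Pyruvate enters mitochondria through the carrier formed by Mpc1 and Mpc2, which work as a pair. Mpc1 (chromosome 17, 8282904 to 8297661) had 1431 CPM in horizontal, 527 in RGC, 350 in Müller, 316 in bipolar, 281 in microglia and 153.5 in cone barcodes. The horizontal level was 2.72-fold (2.63 to 2.81) that in RGC barcodes, the next class. Mpc2 hardly differed, from 373 to 436 CPM in 5 classes and 97.45 CPM in microglia barcodes. The Mpc1 share of the pair ran from 76.6% (75.7% to 77.5%) in horizontal and 74.2% in microglia through 57.6% in RGC, 48.3% in Müller and 45.8% in bipolar to 28.6% (22.8% to 35.1%) in cone barcodes. The dehydrogenase complex was flatter: its subunits Pdha1, Pdhb and Dlat had 53.1 to 103, 76.0 to 88.8 and 26.8 to 56.9 CPM in the 4 neuronal classes. In Müller and microglia barcodes they had 36.7 and 26.9, 54.6 and 52.1, and 24.8 and 13.4 CPM.

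The pyruvate dehydrogenase kinases switch that complex off. Pdk2 had 59.5 CPM in Müller barcodes, 1.95-fold (1.47 to 2.56) the RGC level of 30.5 CPM, and 4.87 to 20.3 CPM in the other classes. It made 75.95% (65.0% to 84.9%) of kinase UMIs in Müller barcodes. Pdk1, a known hypoxia target, made 74.5% (59.65% to 86.1%) in microglia, 60.2% (50.3% to 69.5%) in bipolar and 42.1% (39.8% to 44.5%) in RGC barcodes, and Pdk3 was the largest part in horizontal barcodes at 43.6% (38.5% to 48.9%). Cone barcodes had 22 kinase UMIs, 16 of them Pdk3, and no share was taken. Pdk4, induced by fasting in other tissues, had 2 UMIs in Müller barcodes and 0 in the other 5 classes, which in RGC barcodes allows up to 0.194 CPM (3 counts over the class).

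Because depth differed between classes, the share of cells with a UMI was also taken after thinning every barcode to 3000 UMIs, which left out none. Hk2 was then seen in 74.0% of cone (64.0% to 82.4%) and 40.7% of microglia barcodes (32.6% to 49.15%), and in 0.658% to 5.34% of the other classes. In RGC barcodes, where Hk2 was lowest with horizontal barcodes, the unthinned share was 6.36%. Pfkfb3 was seen in 49.3% of horizontal barcodes (44.3% to 54.25%) against 5.59% of RGC barcodes, and unthinned in 89.9% and 28.3%. Ldhb was seen in 74.2% of RGC and 9.85% of bipolar barcodes, and unthinned in 97.4% and 16.3%. Mpc1 was seen in 98.0% of horizontal and 32.3% of cone barcodes. As a measure of free RNA, Gnat1 had a UMI in 14.1% of horizontal to 28% of bipolar barcodes and in 37.5% of cone barcodes at this depth (59.9% of RGC barcodes unthinned), so that a low share of a gene that is abundant elsewhere cannot be told apart from carried-over RNA.

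**Figure D3:**
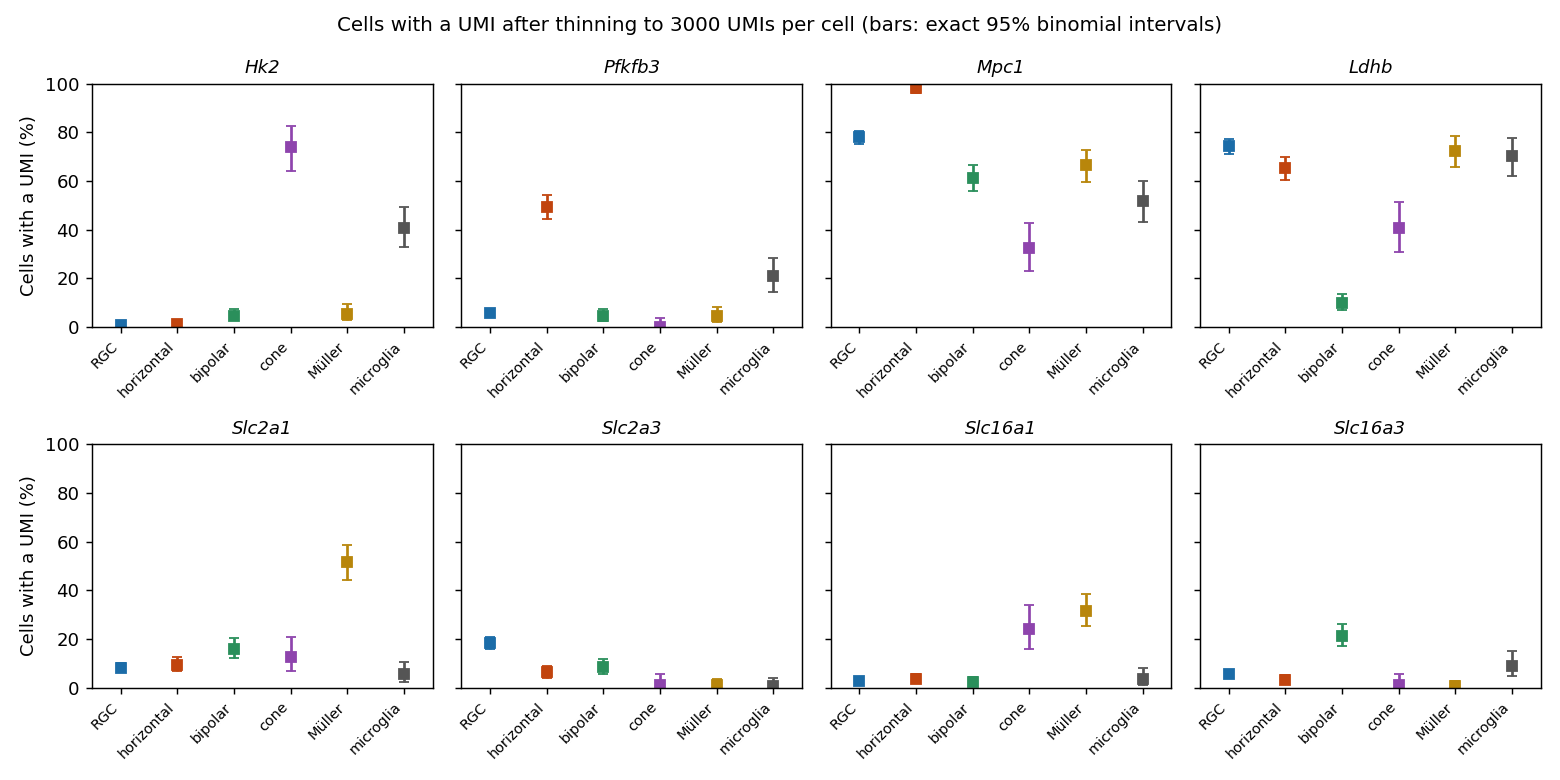
Share of barcodes with at least 1 UMI of a gene (vertical axis, percent) for 8 members after thinning each barcode to 3000 UMIs, in the 6 classes (horizontal axis), with squares for the share and bars for exact 95% binomial intervals. Hk2 stands at 74.0% in cone barcodes and Pfkfb3 at 49.3% in horizontal barcodes, and Slc2a1 and Slc2a3 have their highest shares in Müller and RGC barcodes.

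RGC barcodes were then set against each other class gene by gene. A gene had to reach 20 UMIs in both classes together, which 32 members did and Pdk4 did not, and counted as higher or lower at a CPM ratio of 2 or more. Several passed through RGC barcodes alone, since 30 members reached 20 UMIs in horizontal, 29 in bipolar, 25 in Müller, 22 in cone and 19 in microglia barcodes. Of the members called higher in RGC, 0 of 2 were under 20 UMIs in horizontal, 1 of 7 in bipolar, 6 of 11 in cone, 5 of 18 in Müller and 10 of 22 in microglia barcodes, and such members could pass only by being high in RGC barcodes. The comparisons share the RGC barcodes, so they are given side by side. All called members had an interval that left 1, except Slc16a7 in Müller and Pfkfb2 and Slc16a7 in microglia barcodes.

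Against horizontal barcodes the members differed little. In RGC barcodes 2 were higher (Slc2a3 at 2.55-fold and Slc16a3 at 4.295-fold), where 22.8% of all genes were, and 2 were lower (Pfkfb3 and Mpc1), where 10.1% were. The median ratio was 1.04 over the members and 1.12 over all genes tested. Against bipolar barcodes 7 members were higher in RGC (background 24.6%), namely Slc2a3, Aldoc, Eno2, Ldhb, Slc16a7, Pdk2 and Pdk3. Aldoc was 5.68-fold (5.01 to 6.48) and Eno2 3.03-fold (2.76 to 3.34) higher, whereas Slc16a7 rested on 2 bipolar UMIs, at a ratio of 3.99 (1.07 to 33.5). Hk2 and Slc16a3 were lower (background 13.8%), and the medians were 1.13 and 1.07.

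Against cone barcodes 11 members were higher in RGC (background 22.9%) and 4 lower (background 15.6%), with medians of 1.49 and 1.00. Of the higher ones Aldoc, Tpi1, Eno2, Ldhb and Mpc1 reached 20 UMIs in cone barcodes themselves, with Ldhb at 3.74-fold (2.96 to 4.799). The others, Slc2a3, Pfkm, Pfkfb3, Slc16a3, Pdk1 and Pdk2, had 0 to 10 cone UMIs and passed the minimum through RGC barcodes alone, and of these Slc16a3 and Pdk2 rested on 2 cone UMIs each, with ratios of 4.08 (1.12 to 33.9) and 6.26 (1.72 to 51.9). Pfkfb3, at 0 in cone barcodes, was at least 2.95-fold higher when 3 counts are set in place of 0. The 4 lower ones were Hk1 at 2.32-fold (1.90 to 2.82), Hk2, Pfkfb2 at 4.91-fold (2.45 to 8.99) and Slc16a1 at 8.29-fold (5.70 to 11.8) above RGC in cone barcodes. Ldha missed the call, with a cone level 1.83-fold (1.69 to 1.99) that of RGC barcodes.

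Against Müller barcodes 18 members were higher in RGC (background 25.8%) and 4 lower (background 19.2%), with medians of 2.17 and 1.10. The higher ones held 11 enzymes of the pathway from hexokinase to lactate, namely Hk1, Gpi1, Pfkm, Aldoa, Tpi1, Gapdh, Pgk1, Pgam1, Eno2, Pkm and Ldha, beside Slc2a3, Slc16a3, Slc16a7, Pdha1, Dlat, Pdk1 and Pdk3. Eno2 was the widest at 12.5-fold (9.84 to 16.1). The 4 lower ones were the transporters Slc2a1, 8.71-fold (7.50 to 10.1) higher in Müller barcodes, and Slc16a1, 11.1-fold (8.76 to 13.99) higher, with the enzymes Eno1 and Hk2. Against microglia 22 were higher in RGC (background 36.5%) and 3 lower (background 16.8%), with medians of 3.49 and 1.36. The lower ones were Hk2, Pfkfb3 and Slc16a7. Hk2 was 1 of the lower members in 4 of the 5 comparisons, all but that with horizontal barcodes, which had 12 Hk2 UMIs.

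**Figure D4:**
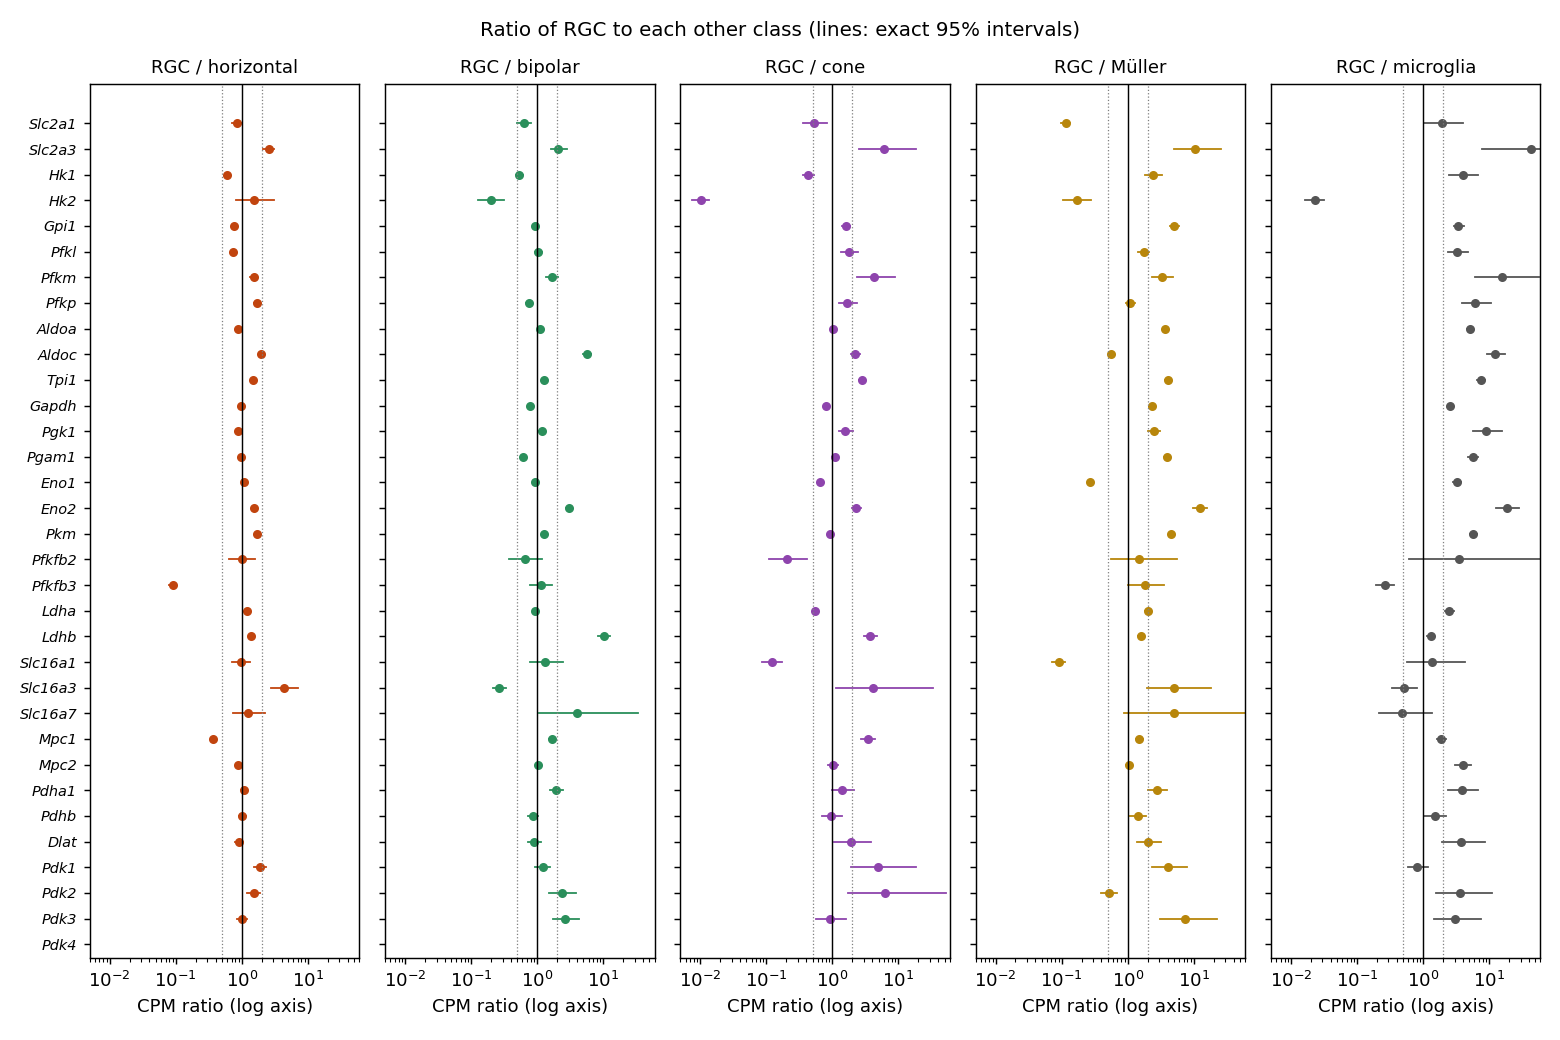
Ratio of the CPM in RGC barcodes to that in each other class (horizontal axis, log scale) for the 33 members (vertical axis), with points for the ratio, lines for exact 95% intervals that may run past the edge of the panel, and dotted lines at the 2-fold limits. Points lie close to 1 against horizontal barcodes and mostly to the right of 1 against Müller and microglia barcodes, while Hk2 lies far to the left against cone and microglia barcodes. Pdk4 and the ratios of Pfkfb3 and Slc16a7 to cone barcodes, where both had 0 UMIs, are not drawn.

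Neighbouring genes of the pathway were read from lists by the same rule, in the same order of classes, with the same background shares. Of 16 other glycolysis and pyruvate genes tested, 5 were higher (25.8% of all genes) and 6 lower (19.2%) in RGC than in Müller barcodes. Their median log2 ratio was -0.51, against 1.115 over the members. For horizontal barcodes the counts were 4 (22.8%) and 0 (10.1%) of 16, and for bipolar 2 (24.6%) and 0 (13.8%) of 15. For cone they were 4 (22.9%) and 2 (15.6%) of 15, and for microglia 7 (36.5%) and 2 (16.8%) of 15. Of 12 citric acid cycle genes none differed by 2-fold from horizontal, bipolar or cone barcodes. Of all genes, 22.8% to 24.6% were higher and 10.1% to 15.6% lower in RGC there. In RGC barcodes 5 of the 12 were higher than in Müller (25.8% of all genes) and 5 than in microglia barcodes (36.5%). Of the shuttle genes, which carry reduced cofactor into mitochondria, 6 of 7 tested were higher in RGC than in Müller barcodes (25.8% of all genes). Got1, a transaminase of the malate-aspartate shuttle, had 450.5 CPM in RGC and 40.7 in Müller barcodes, 11.1-fold (8.15 to 15.45). Of 10 glycogen genes 4 were lower in RGC than in Müller barcodes (19.2% of all genes) and 1 was higher (25.8%). Against bipolar barcodes 3 of them were lower in RGC (13.8% of all genes) and 2 higher (24.6%). Pygb, the brain glycogen phosphorylase, had 123 CPM in Müller and 18.97 in RGC barcodes, whereas Pygm, the muscle form, had 273 CPM in cone and 75.9 in bipolar barcodes against 5.83 in RGC barcodes. Of 8 pentose phosphate genes 4 were lower in RGC than in microglia barcodes (16.8% of all genes) and 1 was higher (36.5%).

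Single neighbours differed widely as well. Emb, embigin, a partner of monocarboxylate transporters, had 175.5 CPM in RGC barcodes and 2.44 to 3.97 CPM in horizontal, bipolar, cone and microglia barcodes, 44.2-fold (27.9 to 74.8) above horizontal, with 27.8 CPM in Müller barcodes. Bsg, basigin, the partner of the same family in glia and photoreceptors, had 5146 CPM in Müller and 894 in RGC barcodes, and is named here after its values were seen. Horizontal barcodes held the nuclear receptor Esrrg at 173 CPM against 19.1 in RGC barcodes, and Ldhd, a mitochondrial D-lactate dehydrogenase, at 1.10 against 6.86 CPM, on 5 horizontal UMIs. Epas1, the hypoxia factor HIF-2 alpha, had 166 CPM in Müller and 1.36 in RGC barcodes, and Txnip, which restrains glucose uptake, 286 CPM in microglia and 1.10 in RGC barcodes. Ppargc1a, a driver of mitochondrial genes, had 48.6 CPM in RGC and 3.75 in horizontal barcodes. Mitochondrial creatine kinase, Ckmt1, had 133 CPM in RGC, 13.7 in horizontal and 8.93 in Müller barcodes, but 529 CPM in cone barcodes. In RGC barcodes Gpd2, of the glycerol phosphate shuttle, was at 26.9 CPM against 2.204 in horizontal barcodes. Gbe1, the glycogen branching enzyme, and Egln3, a sensor of oxygen, were 5.88-fold (2.83 to 14.7) and 4.88-fold (1.88 to 18.1) higher in RGC than in bipolar barcodes. Ugp2 of glycogen synthesis (5.28-fold), the kinase subunit Prkaa2 (4.195-fold), the pentose phosphate enzyme G6pdx (4.125-fold) and Esrra (5.12-fold, 1.41 to 42.4, on 2 cone UMIs) were higher in RGC than in cone barcodes. Tigar (11.1-fold, 3.05 to 92.0, on 2 Müller UMIs) was higher than in Müller and Pdp1 (15.5-fold, 2.76 to 612, on 1 microglial UMI) higher than in microglia barcodes.

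Within RGC barcodes, 886 with 6000 or more UMIs were grouped by single genes on counts thinned to 6000 UMIs, and full counts were compared with those of the RGC barcodes outside the group at 1.5-fold. Spp1, osteopontin, is known from alpha RGCs, large cells with fast axons, and Opn4 encodes melanopsin, the pigment of intrinsically photosensitive RGCs. The 29 Spp1 barcodes had more glycolytic RNA: the members made 3.05% of their UMIs against 2.04% of the others. Of 32 members 9 were higher (background 11.6%) and 1 lower (background 16.6%), with a median log2 ratio of 0.29 against -0.03 over all genes. The lower one, Slc16a7, rested on 1 UMI in the group and had an interval that held 1. Aldoc differed most among the well-counted members, with 2751 CPM against 758, a ratio of 3.63 (3.465 to 3.80), and 34.55% of aldolase UMIs against 16.3%. Per cell, Aldoc ran from 853 through a median of 2287 to 5569 CPM in Spp1 barcodes and from 0 through 565 to 3569 CPM in the others, so the groups overlapped. Gapdh (1.70-fold, 1.65 to 1.75), Ldha (1.75-fold, 1.64 to 1.865) and Ldhb (1.77-fold, 1.65 to 1.90) were higher as well, but 1 barcode held 21.2% of the Ldhb UMIs of the group. Without that barcode Ldhb was at 917 CPM, 1.488-fold (1.37 to 1.61), and no longer passed, whereas Aldoc (3.47-fold), Gapdh (1.62-fold) and Ldha (1.70-fold) still passed without the barcode that held most of each. The Ldhb share of lactate dehydrogenase UMIs, that barcode included, was 44.8% against 44.5%. Pfkfb2, Pfkfb3 and Slc16a3 also passed, on 10, 26 and 31 UMIs, and Hk2 and Slc16a1 on 5 and 15 UMIs with intervals that held 1. Recomputed in the same way, each member without the barcode that held most of its UMIs, 6 members were higher (background 6.17% by the same step), and Hk2, Pfkfb3 and Ldhb had dropped out. Of these 6, the intervals of Pfkfb2 (1.952-fold, 0.8149 to 4.035, on 8 UMIs) and Slc16a1 (1.617-fold, 0.8425 to 2.846, on 13 UMIs) held 1. Spp1 barcodes had a median of 26428 UMIs against 15815, immediate-early genes at 410 CPM against 1012 and the rod list at 311 against 471. The part of these differences in the result was not tested.

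The 33 barcodes with Opn4 and without Spp1 stood on the other side. The members made 1.35% of their UMIs against 2.12% of the other RGC barcodes, 15 of 32 were lower (background 18.6%) and 0 higher (background 14.7%), and the median log2 ratio was -0.51 against 0 over all genes. Ldhb was at 292 CPM against 652 (0.447-fold, 0.379 to 0.525), Pfkl at 105 against 211, Eno1 at 580 against 1104, Pkm at 1260 against 2343 and Tpi1 at 1375 against 2482. Hk1 (1.19-fold, 0.928 to 1.52) and Mpc2 (0.955-fold) did not differ beyond counting error. Ldhb made 33.1% (28.8% to 37.6%) of lactate dehydrogenase UMIs against 44.8%, and Eno2 52.05% of enolase UMIs against 43.6%. Per cell, Ldhb ran from 0 through a median of 248 to 1152 CPM in Opn4 barcodes and from 0 through 502 to 3602 CPM in the others. Of the 15, intervals held 1 for Hk2, Slc16a3 and Slc16a7, and Slc16a1 rested on 1 UMI. Of the Aldoc UMIs of the group 1 barcode held 29.2%. Depth was close, with medians of 15274 and 16111 UMIs, while the RGC marker list was at 8623 CPM against 11668 and the rod list at 606 against 457, whose part was not tested. Groups set on counts thinned to 9000 UMIs held 42 Opn4 barcodes with 6 members lower (background 17.5%) and 1 higher (background 13%).

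Few members passed in the remaining groups. Foxp2 barcodes (38) had 0 members higher and 2 lower (backgrounds 10.5% and 15.4%), and Neurod2 barcodes (53) 1 and 2 (8.89% and 13.7%). Cartpt barcodes (128), a group of direction-selective RGCs by that marker, had 0 and 0 (5.07% and 12.5%), although the members together made 2.49% of their UMIs against 2.015% of the others. The Müller marker list was at 551 CPM in Cartpt barcodes against 378.5 CPM, and its part was not tested. Pvalb barcodes (177) had 1 and 1 (5.5% and 8.53%). Only 4 barcodes met the Lmo2 rule, and they are not described. A barcode could be in several groups, and all groups come from the same pooled sample.

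**Figure D5:**
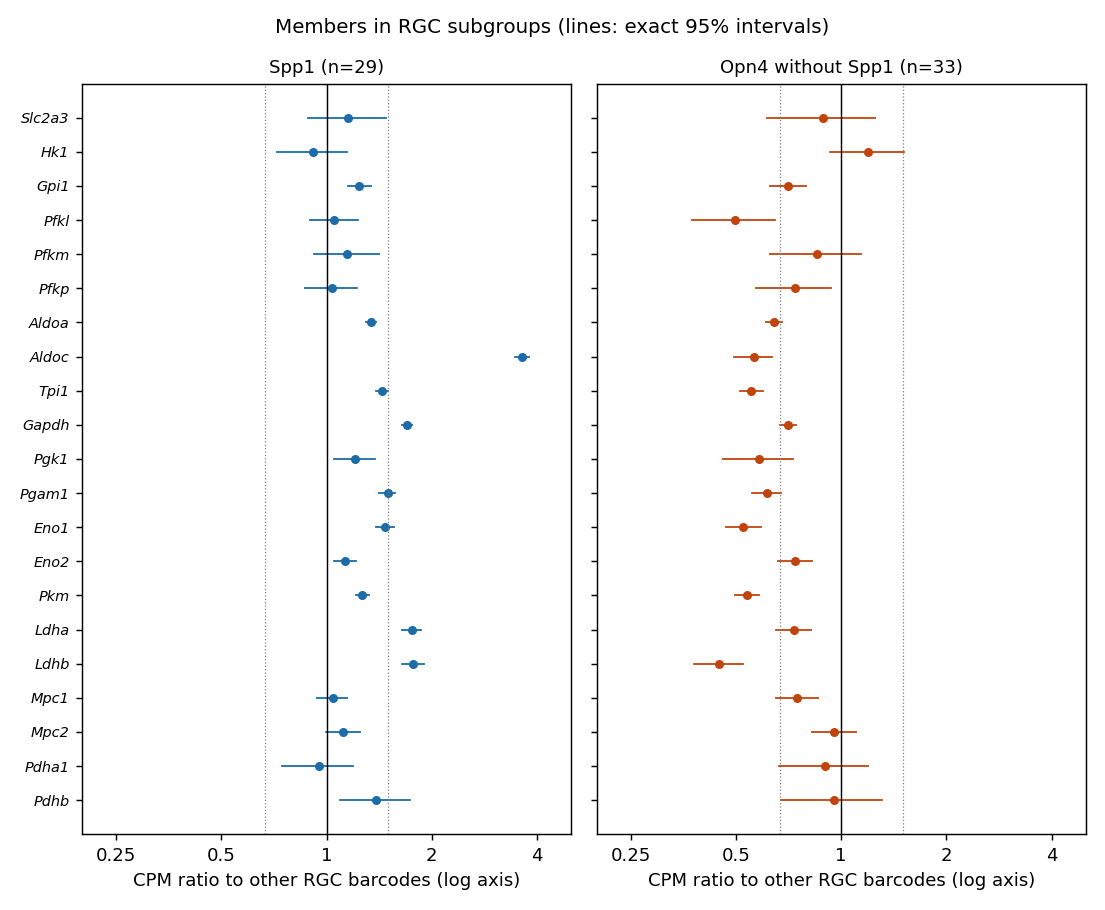
Ratio of the CPM in Spp1 (left) and Opn4 without Spp1 RGC barcodes (right) to that in the RGC barcodes outside each group (horizontal axis, log scale) for the members with 1000 or more UMIs over these RGC barcodes (vertical axis), with points for the ratio, lines for exact 95% intervals and dotted lines at the 1.5-fold limits. Aldoc stands at 3.63 in the Spp1 group, and most members lie left of 1 in the Opn4 group.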

How the data were processed

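The deposited table holds raw counts of UMIs, unnormalized, for 27999 genes in 3237 barcodes, pooled over 4 retinas by the authors with 1 barcode suffix and no map to a retina. Total depth was 31361961 UMIs, with 3198 to 53709 per barcode. Per the submitters' processing notes, Cell Ranger (version not given in the sources used here), Seurat 2.2 and the mm10 build were used. No column belonged to another sample (0 such columns).

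Barcodes with at least 500 genes and under 10% mitochondrial UMIs were kept, and Scrublet (scanpy 1.11.5, seed 0) removed 63 (2.33%) as doublets, which left 2636. Class rules, in UMIs, were Slc17a6 at least 1, Rbpms plus Slc17a6 at least 3 and Lhx1 at most 1 (RGC), Lhx1 at least 2 and Slc17a6 at 0 (horizontal), Trpm1 at least 2 and Pcp2 at least 3 (bipolar), Arr3 at least 5 and Gnat2 at least 2 (cone), Rlbp1 and Slc1a3 at least 3 each (Müller), and C1qa, C1qb and C1qc together at least 20 (microglia). Of the kept barcodes, 31 met several rules and were left out, and 517 met none.

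CPM was computed from UMIs summed over a class. With no replicates, no p-value was taken. Intervals are exact 95% ones (Poisson for CPM, Clopper-Pearson for shares, conditional binomial for ratios; scipy 1.17.1) and cover counting error only. Family shares needed 30 UMIs. A 0 was replaced by a floor of 3 counts, a choice made after the data were seen, as was the set of Müller barcodes left out: a first version with 6 vascular markers would have removed 176 barcodes and a second 4. RGC groups needed at least 2 UMIs of Spp1, Opn4, Foxp2, Lmo2 or Neurod2, 10 of Cartpt or 4 of Pvalb, and 20 cells. Neighbouring genes are named at a ratio of 4 or more with 100 or more UMIs over both classes, at most 6 per class. Members and lists were chosen with earlier results of these data known. A first rod RNA filter and some genes of the lists are not reported here. Scripts were tested on simulated data.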

Additional observations from a re-analysis of the deposited data

How the results depend on the processing

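No paired analysis was possible because the barcodes name no retina, and for the same reason no retina could be left out. Levels moved by more than their counting interval most often with a mitochondrial limit of 5% (104 of 198), which left 34 horizontal, 6 bipolar, 6 cone and 31 Müller barcodes, and the cause was not tested. Of 32 members, those higher in RGC then numbered 4 against horizontal (17.6% of all genes), 3 against bipolar (5.98%) and 6 against cone barcodes (6.1%). The share over all genes fell in each. The member count fell from 7 against bipolar and 11 against cone barcodes, but rose from 2 against horizontal barcodes. At that limit Hk2 made 0% of hexokinase in horizontal barcodes. Aldoc made 18.49% in RGC, 9.631% in horizontal, 12.43% in bipolar, 17.27% in cone and 49.88% in Müller barcodes. Eno2 made 42.07% in RGC, 27.68% in horizontal and 27.27% in bipolar barcodes, and Ldhb 48.15% in horizontal, 17.07% in bipolar and 6.25% in cone barcodes, the other order of these 2 classes, and 49.69% in Müller barcodes, where Ldhb and Aldoc were then both under 50%. With barcodes of several classes kept, Hk2 made 12.24% in bipolar and 77.07% in microglia, Aldoc 4.9% and Eno2 21.51% in bipolar, and Ldhb 10.54% in bipolar and 54.42% in microglia barcodes. Without barcodes holding a Gnat1 UMI, a step chosen after seeing the data in place of a planned one on rod RNA, Hk2 made 2.389% in RGC, 0.6263% in horizontal and 4.63% in bipolar barcodes, Aldoc 15.6% in RGC and 61.13% in Müller, Eno2 36.98% in horizontal and Ldhb 42.59% in RGC barcodes. With class minimums doubled, 5 members were higher in RGC than in horizontal barcodes (21.9% of all genes), and Aldoc made 18.23% in RGC and 62.78% in Müller barcodes. Aldoc made 3.451% in bipolar barcodes with no filter, 53.56% in Müller barcodes without the cell holding most of it, and 51.72% without the Müller barcodes with a Cldn5, Pecam1 or Gfap UMI. With a minimum of 100 UMIs, 1 of 30 members was lower in RGC than in bipolar barcodes (11.6% of all genes). Groups of RGC barcodes set at 9000 UMIs had 8 members higher and 3 lower for Spp1 (24 barcodes; 13.2% and 16.1% of all genes). At a mitochondrial limit of 5% Spp1 barcodes had 9 higher and 2 lower (12.9% and 17.1%), Opn4 barcodes without Spp1 1 higher and 13 lower (27 barcodes; 15.2% and 19.2%), and Foxp2 barcodes 2 higher and 5 lower (10.6% and 16.2%). Without the barcode holding most UMIs of each member, an alternative chosen after seeing the data and read for higher calls alone, Neurod2 and Pvalb barcodes had 0 higher (4.6% and 3.79% of all genes). Depth limits which members can be called: 22 reached 20 UMIs in cone and 19 in microglia barcodes.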
